A study of Mus musculus with 2 samples.

Results

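The Osr1-positive cells described here were 149 of the 11588 cells kept from the embryonic day 14 (E14) mouse utricle, a share of 1.29% (95% interval 1.09 to 1.51%, exact Clopper-Pearson). They were chosen by their own counts: at least 2 UMIs (unique molecular identifiers, which count captured transcripts) of Osr1, and values below set limits for genes that mark cycling cells and 4 other groups. Those limits were fewer than 3 UMIs of Mki67 and Top2a together, at most 1 of Zic1 and Zic4, and fewer than 3 of Aspn and Col12a1, of Car3 and Aqp1, and of Chst1, Apod and Crym. The study profiled utricular sensory epithelium of wild-type (WT) C57BL/6J mice by droplet-based scRNA-seq at E14 and at postnatal day 2 (P2), with 1 library per age and no treatment named. The epithelium had been detached with thermolysin and dissociated with Accutase, and which animals were pooled is not recorded per cell. With 1 library per age there is no replicate, so no test was run, and every interval below covers counting error only. Levels are given as CPM, the summed count of a gene scaled to the same total in each group or cell. The question was which lineage these cells belong to, and they were set against 2904 Epcam cells (at least 2 UMIs of Epcam, fewer than 2 of Col1a2) and 5313 Col1a2 cells (at least 2 UMIs of Col1a2, fewer than 2 of Epcam) of the same library.

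The developing utricle is an otic epithelium, held together by keratins, claudins and Epcam, that lies on periotic mesenchyme, a loose tissue rich in fibrillar collagens. Osr1 encodes a zinc finger transcription factor that marks intermediate mesoderm and several embryonic connective tissues. Kcnk2 encodes a two-pore potassium channel that sets the resting potential of cells, and Bmp4 a secreted growth factor that patterns the otic vesicle and acts through Smad proteins. Thermolysin cleaves the basement membrane between both tissues.

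Most Osr1-positive cells carried Col1a2, which encodes a chain of type I collagen, and few carried Epcam, an adhesion protein of epithelial cells. Neither gene was part of the rule. Although the library is labelled utricular sensory epithelium, 52.7% of all kept E14 cells had at least 2 Col1a2 UMIs. Col1a2 reached 2 UMIs in 125 of 149 cells (83.9%, 95% interval 77.0 to 89.4%), and Epcam in 24 of 149 (16.1%, 10.6 to 23.0%). Only Col1a2 passed this limit in 113 cells (75.8%), only Epcam in 12, both in 12 and neither in 12. The cells with both were deep, with a median of 14652 UMIs, and those with neither were shallow, with a median of 2240.5, against 7837 over all 149 cells (range 1224 to 36680). Immune cells also held such UMIs, and whether these came from free RNA or from doublets was not tested. Among 406 immune cells (at least 3 UMIs of Tyrobp, Fcer1g and Csf1r, median 7647 UMIs), 21.9% had at least 2 Col1a2 and 20.2% at least 2 Epcam UMIs. Among the 276 with at least 10 UMIs of these immune genes, the shares were 19.9% and 15.9%. The Col1a2 share in Osr1-positive cells was therefore well above both immune shares. For Epcam, both immune shares lay within the interval of the share over all Osr1-positive cells.

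**Figure D1:**
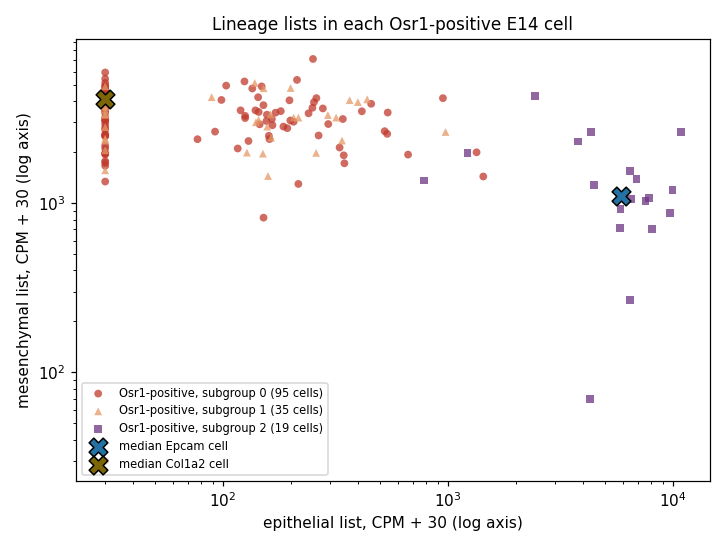
Summed levels of the mesenchymal and epithelial marker lists, Epcam and Col1a2 included, in each of the 149 Osr1-positive cells, as CPM + 30 on log axes. Colours give the 3 subgroups and crosses the median Epcam cell and the median Col1a2 cell. Epcam and Col1a2 chose these comparison cells, so the crosses are partly set by that choice. Subgroups 0 and 1 lie near the Col1a2 cross in the mesenchymal sum, and subgroup 2 lies near the Epcam cross.

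The same order was found at equal depth. After each cell was thinned to 4000 UMIs, which left out 16 shallower Osr1-positive cells, any Col1a2 UMI was present in 88.7% of the remaining 133 (82.1 to 93.5%), against 3.01% of Epcam cells, 97.1% of Col1a2 cells and 23.1% of immune cells (unthinned, 89.3% of the Osr1-positive cells and 29.1% of the immune cells had any). Any Epcam UMI was present in 17.3% of thinned Osr1-positive cells (11.3 to 24.8%), against 98.4% of Epcam cells, 3.70% of Col1a2 cells and 26.9% of immune cells (unthinned, 22.8% and 23.6%). The immune cells that passed both limits had a median of 80722 UMIs, and 29.1% of all immune cells had doublet scores among the highest, whose part in the immune share was not tested.

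The Col1a2 share was higher in cells with more Osr1. The Osr1-positive cells held 2 to 12 Osr1 UMIs, with a median of 3, and 54 of them held 2, the lowest count allowed. At least 2 Col1a2 UMIs were found in 66.7% of cells with 2 Osr1 UMIs, 91.9% with 3, 95% with 4 and 94.7% with 5 or more. The 119 cells just outside the limit, with 1 Osr1 UMI and all other limits kept, had at least 2 Col1a2 UMIs in 52.9% and at least 2 Epcam UMIs in 39.5%. Among 4291 cells that kept the other limits and had no Osr1, these shares were 16.9% and 49.4%. The bins differ in depth, with medians of 5105 UMIs at 0 Osr1 UMIs and 8423.5 at 5 or more, and the part of depth in this order was not tested.

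**Figure D2:**
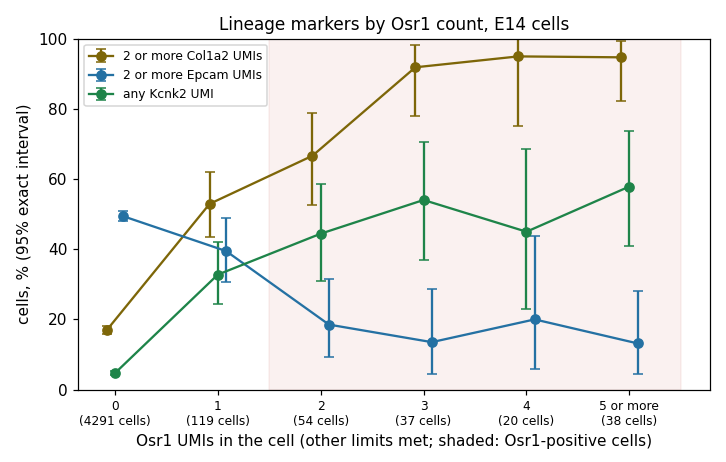
Share of cells (percent, 95% exact binomial intervals) with at least 2 Col1a2 UMIs, at least 2 Epcam UMIs and any Kcnk2 UMI, by the number of Osr1 UMIs in the cell, among E14 cells that kept all other limits. The Col1a2 share runs through 16.9, 52.9, 66.7, 91.9, 95 and 94.7%, and the Epcam share lies between 13.2 and 20% from 2 UMIs on.

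Nearest cells gave the same split. Cells were compared in 30 principal components of 2000 variable genes, without the genes of the rule, Epcam or Col1a2, and the 15 nearest cells that were not Osr1-positive were read. Most of these were Col1a2 cells for 124 of 149 Osr1-positive cells (83.2%, 76.2 to 88.8%) and Epcam cells for 15 (10.1%). Across 8858 genes, which are not independent replicates, the pooled levels of Osr1-positive cells had a Spearman correlation of 0.855 with Col1a2 cells and 0.81 with Epcam cells. All of these sums come from 1 library, so shared free RNA enters every one of them.

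Of the epithelial marker list, none was higher and 13 of 14 genes tested were at least 2-fold lower in Osr1-positive cells than in Epcam cells (a gene was tested at 10 or more CPM in either group, ratios had 5 CPM added to both, and Epcam and Col1a2 were left out). The background over all 9554 genes tested against Epcam cells was 5.65% at least 2-fold higher and 10.6% at least 2-fold lower, with a median log2 ratio of -0.14, against -1.87 for the list. Krt8 and Krt18, the keratin pair of simple epithelia, stood at 93.5 and 260 CPM in Osr1-positive cells, against 562 and 942 CPM in Epcam cells. Cldn3, a tight junction protein, stood at 144 CPM in Osr1-positive cells and 536 CPM in Epcam cells. The level per cell was uneven. The list, here with Epcam included, summed to a median of 119 CPM per Osr1-positive cell, with 54 cells at 0 and a maximum of 10815 CPM. The medians were 5884 CPM in Epcam cells and 0 CPM in Col1a2 cells, which are partly set by the Epcam limits that chose these cells.

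The mesenchymal list showed mostly the opposite pattern, with 11 of 15 tested genes at least 2-fold higher and 3 lower than in Epcam cells. The genes named next for this comparison are all among the 11 higher. Col3a1, which encodes type III collagen, stood at 500 CPM (95% Poisson interval 462 to 539) in Osr1-positive cells, against 13.3 CPM in Epcam cells. Prrx1, a homeobox factor of limb and craniofacial mesenchyme, stood at 165 CPM in Osr1-positive cells and 1.86 CPM in Epcam cells. Col5a2 and Col6a3 encode chains of the minor fibrillar and the beaded-filament collagens, and stood at 101 and 79.3 CPM in Osr1-positive cells, against 3.35 and 1.79 CPM in Epcam cells. Against Col1a2 cells, 0 of 14 mesenchymal genes were at least 2-fold higher and 5 lower, beside 4.88% higher and 4.39% lower among all 8972 genes tested (median log2 ratio -0.00). Lum, a corneal and dermal proteoglycan, stood at 8.98 CPM in Osr1-positive cells and 178 CPM in Col1a2 cells, and Pdgfra, the receptor that marks many fibroblast precursors, at 65.1 and 203 CPM in the same order. Col1a1, the partner chain of Col1a2, was almost absent from both, with 1 UMI in all Osr1-positive cells (0.748 CPM) and 9.62 CPM in Col1a2 cells.

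Of the otic mesenchyme list, 6 of 8 tested genes were at least 2-fold higher than in Epcam cells and 0 lower, and 1 of 9 was higher and 3 lower than in Col1a2 cells. The 3 lower were Otor, Coch and Twist2. Pou3f4, the POU factor whose loss in mesenchyme causes X-linked deafness, stood at 252 CPM in Osr1-positive cells, against 4.48 CPM in Epcam cells and 391 CPM in Col1a2 cells. Tbx18, a T-box factor needed for the spiral ligament, stood at 215 CPM in Osr1-positive cells, against 4.58 and 349 CPM in Epcam and Col1a2 cells. Foxc1, a forkhead factor of mesenchyme and meninges, stood at 119 CPM in Osr1-positive cells, against 1.86 and 140 CPM. By these 3 genes the Osr1-positive cells lay within 2-fold of Col1a2 cells. Otor, a small secreted protein of otic fibrocytes and cartilage, averaged 2021 CPM in Osr1-positive cells, against 146 CPM in Epcam cells and 16091 CPM in Col1a2 cells, which is 7.94-fold more than in Osr1-positive cells. Per Osr1-positive cell Otor had a median of 373 CPM and a maximum of 24275 CPM. Coch, a secreted protein of the spiral ligament and vestibular stroma, stood at 25.4 CPM in Osr1-positive cells with 67.6% of its UMIs from 1 cell, against 1459 CPM in Col1a2 cells (48.1-fold). Mgp, an inhibitor of calcification, and Fabp7, a fatty acid carrier of glia, were also among the genes furthest below Col1a2 cells, with 3.74 and 29.9 CPM in Osr1-positive cells against 200 and 771 CPM.

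Factors of the otic epithelium were low beside Epcam cells. Of 19 tested, 0 were at least 2-fold higher and 18 lower than in Epcam cells. Sox2, which sensory progenitors need, had 16.5 CPM in Osr1-positive cells, all from 4 cells, against 255 CPM in Epcam cells. Pax2 was found in 7 cells and Gata3 in 2. The sensory epithelium list was lower for all 11 tested genes and the hair cell list for all 8. Against Col1a2 cells, 6 of 11 otic epithelium factors were at least 2-fold higher and 1 lower, beside 4.88% and 4.39% of all genes tested. Of the hair cell list 3 of 4 were higher, and of the nonsensory otic epithelium list 5 of 5. In Osr1-positive cells with fewer than 2 Epcam UMIs, 1, 0 and 1 genes of these 3 lists were higher and 2, 1 and 0 lower. Otol1 and Otog, which encode proteins of the otolithic and tectorial matrices, stood at 8.98 and 7.48 CPM in Osr1-positive cells, against 359 and 261 CPM in Epcam cells. The crista epithelium list, which contains Bmp4, had 1 gene higher and 4 of 6 lower than Epcam cells, and the higher one was Bmp4 itself. Zic1 and Zic4 were limited by the rule, so the meningeal list is read without them: of its other genes, Aldh1a2, Crabp2 and Ptgds were at least 2-fold above Col1a2 cells, and Ptgds, a prostaglandin synthase, stood at 323 CPM over all Osr1-positive cells and at 20.6 CPM in those with fewer than 2 Epcam UMIs.

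**Figure D3:**
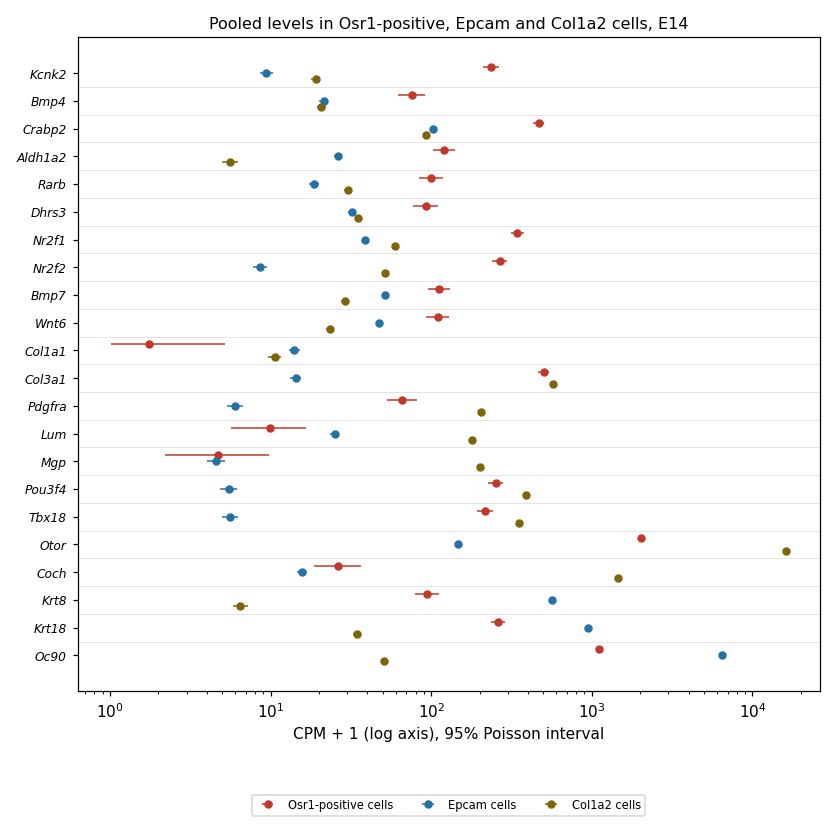
Pooled levels of 22 genes in Osr1-positive, Epcam and Col1a2 cells at E14, as CPM + 1 on a log axis with 95% Poisson intervals. Epithelial genes are highest in Epcam cells, and the nuclear receptor and retinoic acid genes are highest in Osr1-positive cells. Pou3f4 and Tbx18 lie within 2-fold in Osr1-positive and Col1a2 cells, and Col3a1 lies far above Epcam cells in Osr1-positive cells. Otor, Coch, Lum and Mgp are far lower in Osr1-positive cells than in Col1a2 cells, and Col1a1 is almost absent from both.

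Kcnk2 and Bmp4 had been proposed as markers from these data, so their levels are a description. Kcnk2 stood at 234 CPM in Osr1-positive cells (209 to 262), against 8.40 CPM in Epcam cells and 18.1 CPM in Col1a2 cells, which is 17.9-fold and 10.4-fold with 5 CPM added. It was found in 75 of 149 cells, at a median of 59.2 CPM and a maximum of 1638 CPM per cell. After thinning it was present in 43.6% of Osr1-positive cells, 3.27% of Epcam cells, 3.85% of Col1a2 cells and 1.14% of immune cells. Bmp4 was less distinct, with 74.8 CPM in Osr1-positive cells (60.9 to 91.0), against 20.4 CPM in Epcam cells and 19.7 CPM in Col1a2 cells (3.14-fold and 3.24-fold). It was found in 66 of 149 cells, and after thinning in 29.3%, against 4.86%, 6.56% and 1.89% of Epcam, Col1a2 and immune cells. Both genes were found in 38 cells and neither in 46, so all 3 markers were found in 25.5% of the Osr1-positive cells. In the cells with 1 Osr1 UMI, Kcnk2 stood at 140 CPM and Bmp4 at 46.8 CPM.

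Of the transcription factors of mesenchyme, 11 of 17 tested were at least 2-fold higher and 4 lower than in Epcam cells. Against Col1a2 cells 8 of 15 were higher and 0 lower. Nr2f1 and Nr2f2 encode the COUP-TF orphan nuclear receptors. Nr2f1 stood at 343 CPM in Osr1-positive cells (313 to 376), against 37.7 CPM in Epcam cells and 58.9 CPM in Col1a2 cells, and was found in 80.5% of Osr1-positive cells. Nr2f2 stood at 266 CPM in Osr1-positive cells, against 7.59 and 50.8 CPM. By its share, Nr2f1 was thus present in most Osr1-positive cells, while for Nr2f2 only the pooled level is given. Osr2, the paralogue of Osr1, stood at 23.2 CPM in 26 Osr1-positive cells, against 1.11 CPM in Epcam cells and 1.65 CPM in Col1a2 cells. Ebf2, a factor of fat and cartilage precursors, stood at 30.7 CPM in Osr1-positive cells, against 0.613 and 5.97 CPM, and Meox2, a homeobox factor of mesoderm, at 20.9 CPM against 0.0707 and 5.08 CPM. The other 3 higher than in Col1a2 cells were Irx5, Meis1 and Meis2, of which Meis2 stood at 69.6 CPM over all Osr1-positive cells and at 18.5 CPM in those with fewer than 2 Epcam UMIs. Hoxa2, the hindbrain and second arch patterning gene, stood at 16.5 CPM in Osr1-positive cells, against 0.0707 and 5.67 CPM in Epcam and Col1a2 cells, and was the only one of 12 Hox genes that reached 10 CPM.

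The retinoic acid list was split. Retinoic acid is made from retinal by Aldh1a enzymes, carried by Crabp proteins, sensed by the Rar receptors and broken down by Cyp26 enzymes, and the otic vesicle is patterned by it along its axis. Of 12 genes tested against Epcam cells 5 were at least 2-fold higher and 4 lower, and of 11 tested against Col1a2 cells 6 were higher and 1 lower. Aldh1a2, the main synthesizing enzyme of embryonic mesoderm, stood at 120 CPM in Osr1-positive cells (102 to 140), against 25.3 CPM in Epcam cells and 4.61 CPM in Col1a2 cells. Crabp2, a carrier that delivers retinoic acid to the nucleus, stood at 466 CPM in Osr1-positive cells (430 to 504) and was found in 86.6% of them, against 102 CPM in Epcam cells and 92.3 CPM in Col1a2 cells. Dhrs3, which turns retinal back to retinol, stood at 91.3 CPM in Osr1-positive cells, against 31.1 and 34.3 CPM. These enzymes and carriers were therefore higher than in both comparisons. Rarb, a receptor that retinoic acid itself induces, stood at 98.7 CPM in Osr1-positive cells (82.6 to 117), against 17.6 CPM in Epcam cells and 29.3 CPM in Col1a2 cells, and Rarg at 41.1 CPM against 14.6 and 28.3 CPM. The retinoic acid genes of the epithelium were lower than in Epcam cells: Aldh1a3 stood at 59.1 CPM in Osr1-positive cells and 332 CPM in Epcam cells, and the degrading enzyme Cyp26b1 at 2.24 and 24.7 CPM.

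Rarb is the textbook case of a promoter that holds a retinoic acid response element, so the stretch of its promoter that matched the searched motif is shown. It lies at chr14:16575506-16575535 on the minus strand of GRCm38.p6 (RefSeq promoter table), 5′ to 3′, with the 2 repeats of the motif in capitals.
Rarb: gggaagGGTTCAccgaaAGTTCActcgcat
The motif, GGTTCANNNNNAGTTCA on either strand, spans positions -53 to -37 from the annotated start and was found in 2 of 32851 promoter windows (0.00609%). Of the 12 retinoic acid genes with a window in the table (of 16), 1 held it. The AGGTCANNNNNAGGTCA form was in 3 windows (0.00913%) and in none of the 12. A match is a run of letters and no evidence of binding in these cells.

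Of the BMP ligands, 3 of 6 tested were at least 2-fold higher than in Epcam cells and 2 lower, and 2 of 6 were higher than in Col1a2 cells and 1 lower. Bmp7, which acts in kidney and otic development, stood at 111 CPM in Osr1-positive cells, against 50.8 CPM in Epcam cells and 28.1 CPM in Col1a2 cells. Bmp5 stood at 14.2 CPM in Osr1-positive cells, 0.259 CPM in Epcam cells and 19.6 CPM in Col1a2 cells. The receptors and Smads differed little: 0 of 9 were higher and 2 lower than in Epcam cells, and 0 of 7 passed 2-fold either way against Col1a2 cells. Of the BMP targets 0 of 9 were higher and 6 lower than in Epcam cells, and 0 of 7 passed 2-fold against Col1a2 cells. Id1 and Id2, inhibitors of basic helix-loop-helix factors that BMP signalling induces, stood at 139 and 50.1 CPM in Osr1-positive cells, against 425 and 260 CPM in Epcam cells and 132 and 64.2 CPM in Col1a2 cells. Among antagonists, Fstl1, a secreted follistatin-like protein, stood at 892 CPM in Osr1-positive cells, against 375 and 411 CPM, and Nbl1, a secreted BMP antagonist, at 174 CPM, against 5.07 and 204 CPM.

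Among Wnt ligands and R-spondins, Wnt6 stood at 109 CPM in Osr1-positive cells, against 46.2 CPM in Epcam cells and 22.4 CPM in Col1a2 cells, and Wnt5a, a non-canonical ligand, at 215 CPM against 42.4 and 170 CPM. Over the list 2 of 8 were at least 2-fold higher and 3 lower than in Epcam cells, and 3 of 5 higher and 0 lower than in Col1a2 cells. Of these 3 only Wnt6 was higher in the cells with fewer than 2 Epcam UMIs, where the median log2 ratio of the list over Col1a2 cells was -0.07, against 1.63 over all Osr1-positive cells, and where 5 genes were lower than in Epcam cells. Rspo3 and Wnt7b had no UMI in those cells, and 48.9% of the Rspo3 UMIs came from 1 cell. Of the Wnt inhibitors and targets 3 of 10 were higher and 3 lower than in Epcam cells, and 2 of 10 higher and 4 lower than in Col1a2 cells. Sfrp2, a secreted Wnt antagonist, stood at 128 CPM in Osr1-positive cells, against 29.3 and 72.3 CPM. Epha7 and Sema3d, a receptor and a ligand of cell guidance, stood at 108 and 65.1 CPM in Osr1-positive cells, against 31.6 and 14.3 CPM in Epcam cells and 41.6 and 23.6 CPM in Col1a2 cells.

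The genes furthest above both Epcam and Col1a2 cells were named by 1 rule, the 20 largest of the smaller of both ratios. They have no common annotation tested here. Csrp2, a LIM protein of smooth muscle and stellate cells, stood at 1121 CPM in Osr1-positive cells (1065 to 1180) and was found in 91.9% of them, against 55.6 CPM in Epcam cells and 247 CPM in Col1a2 cells. Creb5, a CREB-family transcription factor of joint tissue, stood at 94.3 CPM in Osr1-positive cells, against 7.76 CPM in each comparison. Tppp3, a tubulin-binding protein that marks tendon sheath precursors, stood at 168 CPM in Osr1-positive cells, against 12.5 and 18.6 CPM. Mybpc1, a myosin-binding protein of slow muscle, stood at 174 CPM in Osr1-positive cells, against 29.7 and 15.1 CPM. Each of these was at least 4-fold above both comparisons. Arhgap20 stood at 176 CPM against 13.0 and 28.1 CPM. Akap12, a scaffold for protein kinase A, stood at 215 CPM against 52.6 and 47.0 CPM (3.81-fold and 4.23-fold). Aard stood at 321 CPM against 1.72 and 80.5 CPM (48.5-fold and 3.81-fold), and Ifitm1, a small membrane protein that interferon induces, at 175 CPM against 0.943 and 40.5 CPM (30.3-fold and 3.95-fold).

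Clustered on their own, without the genes of the rule, Epcam or Col1a2, the Osr1-positive cells fell into 3 subgroups of 95, 35 and 19 cells, numbered 0, 1 and 2. The epithelial list, Epcam included, set subgroup 2 apart from the others. Its sum had a median of 94.8 CPM per cell in subgroup 0, 114 CPM in subgroup 1 and 6426 CPM in subgroup 2 (range 757 to 10815), where every cell lay above 0. All 19 cells of subgroup 2 had at least 2 Epcam UMIs, against 4 of 95 in subgroup 0 and 1 of 35 in subgroup 1. The Epcam share of all Osr1-positive cells was thus concentrated in 1 subgroup and not spread over them at a like low level. Col1a2 reached 2 UMIs in 8 of 19 cells of subgroup 2, 84 of 95 of subgroup 0 and 33 of 35 of subgroup 1. The nearest cells of subgroup 2 were mostly Epcam cells for 15 of 19 and mostly Col1a2 cells for 1, while those of subgroups 0 and 1 were mostly Col1a2 cells for 88 of 95 and 35 of 35.

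Several values moved with subgroup 2. Its cells had a median of 14615 UMIs, against 7344 in subgroup 0 and 7837 in subgroup 1. Its Osr1 level was 214 CPM, against 457 and 513 CPM in subgroups 0 and 1. Kcnk2 was found in 3 of its 19 cells, against 46 of 95 and 26 of 35. The doublet score, computed by adding pairs of cells, was among the highest 12.5% of the library in 8 of its 19 cells, in 4 of 95 and in 0 of 35. Of the Osr1-positive cells that passed both the Epcam and the Col1a2 limit 8 of 12 had such scores, as did 65.7% of the 665 other E14 cells past both limits, while of those that passed only the Epcam limit 0 of 12 had. How many cells of subgroup 2 were single epithelial cells was not tested beyond this. Oc90, an otoconial protein made by nonsensory otic epithelium, stood at 4660 CPM in subgroup 2, against 43.8 CPM in subgroup 0 and 43.7 CPM in subgroup 1, beside 49.7 CPM in Col1a2 cells. Krt18 was found in 16 and Krt8 in 17 of the 19 cells. Pyy and Ccer2, the other leading genes, were found in 2 and 3 of them, and 98.6% of the Pyy UMIs and 52.9% of the Ccer2 UMIs of all Osr1-positive cells were from 1 cell each.

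Subgroups 0 and 1 were alike in the mesenchymal list, which with Col1a2 included summed to 3109 CPM in subgroup 0 (2985 to 3238) and 3198 CPM in subgroup 1 (2990 to 3416). The leading genes of each subgroup define it and are no test. Those of subgroup 1 were Ier3, an early response gene, with 586 CPM against 150 CPM in the other Osr1-positive cells, Dcn, Nnat, Phlda1 and Camk2n1, an inhibitor of calmodulin-dependent kinase. Further genes were chosen after their values were seen. Aldh1a2 stood at 338 CPM in subgroup 1 and 39.8 CPM in subgroup 0, and after thinning it was present in 68.6% of subgroup 1 cells and 12.7% of subgroup 0 cells. Dcn, the collagen-binding proteoglycan decorin, stood at 673 CPM in subgroup 1 and 199 CPM in subgroup 0. Sostdc1, a secreted antagonist of BMP and Wnt ligands, stood at 102 CPM in subgroup 1 and 5.31 CPM in subgroup 0, and Dlk1, a Notch-related protein of immature mesenchyme, at 207 and 45.2 CPM. Ntrk2, the receptor for brain-derived neurotrophic factor, led subgroup 0, with 161 CPM against 32.7 CPM in subgroup 1. Igf1, the secreted insulin-like growth factor, stood at 162 CPM in subgroup 0 and 7.28 CPM in subgroup 1, Dhrs3 at 137 and 18.2 CPM, and Otor at 3011 and 960 CPM. Osr1 itself and Bmp4 differed less, with Bmp4 at 93.0 CPM in subgroup 0 and 72.8 CPM in subgroup 1.

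**Figure D4:**
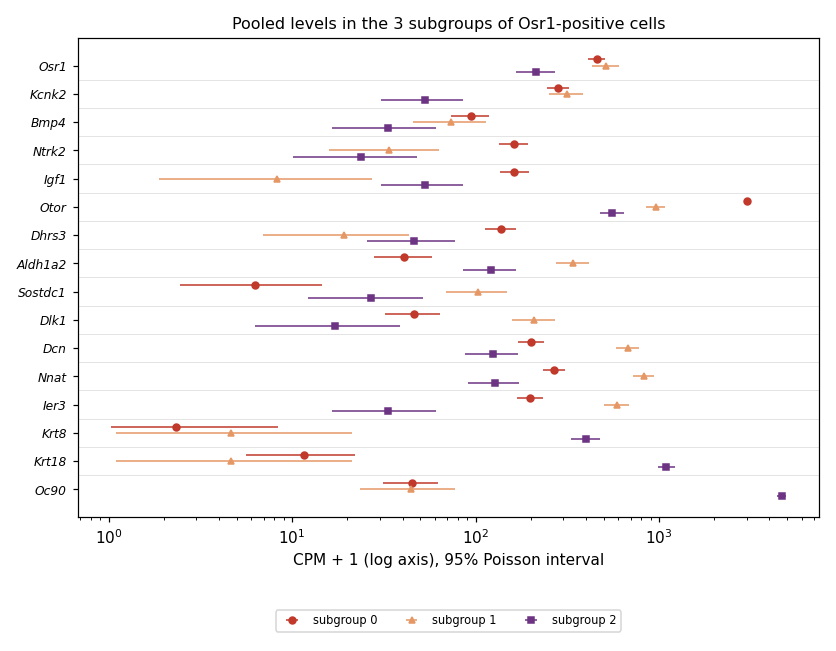
Pooled levels of 16 genes in the 3 subgroups of Osr1-positive cells (95, 35 and 19 cells), as CPM + 1 on a log axis with 95% Poisson intervals. Krt8, Krt18 and Oc90 are high in subgroup 2, Aldh1a2, Sostdc1 and Dlk1 in subgroup 1, and Ntrk2, Igf1 and Otor in subgroup 0.

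Without the 24 cells that had at least 2 Epcam UMIs, the comparison with Col1a2 cells lost most of its epithelial genes. Over all Osr1-positive cells, 9 of 10 epithelial genes were at least 2-fold higher than in Col1a2 cells, and without those 24 cells 1 was higher and 1 lower, beside 3.93% higher and 5.3% lower among the 8888 genes then tested. Krt8 stood at 1.03 CPM and Oc90 at 46.3 CPM in the remaining 125 cells, against 5.48 and 49.7 CPM in Col1a2 cells. Of the transcription factors of mesenchyme, 8 were at least 2-fold higher than in Col1a2 cells and 0 were lower, with Nr2f1 at 427 CPM in these cells. Crabp2 stood at 565 CPM and Csrp2 at 1412 CPM in them. Aldh1a2 stood at 123 CPM in these 125 cells and at 120 CPM over all 149. Against Epcam cells, 0 of the epithelial genes tested were higher and 14 lower in the 125 cells, beside 6.93% higher and 14.6% lower among 9688 genes.

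Among the Col1a2 cells, the group most overrepresented near the Osr1-positive cells was that of the 37 Aspn Col12a1 cells, which passed the limit for Aspn, a small leucine-rich proteoglycan, and Col12a1. They were 5.95% of the nearest cells of Osr1-positive cells and 0.323% of all cells, while the 776 Chst1 Apod Crym cells were 23.9% and 6.78%. The 1287 Car3 Aqp1 cells were 4.70% of the nearest cells and 11.3% of all, and the 87 Zic1 Zic4 cells 0.0895% and 0.761%. Cells with 2 or more Osr1 UMIs that had failed another limit made up 30.3% of the nearest cells and 1.49% of all cells. Nr2f1 followed this order. It stood at 343 CPM in Osr1-positive cells, against 282 CPM in Aspn Col12a1 cells, 77.3 CPM in Chst1 Apod Crym cells, 29.6 CPM in Car3 Aqp1 cells and 29.1 CPM in Zic1 Zic4 cells. Csrp2 stood at 1121 CPM in Osr1-positive cells, against 1141, 216, 241 and 122 CPM in the same groups. Otor stood at 2021 CPM in Osr1-positive cells, against 1643 CPM in Aspn Col12a1 cells and 12567 CPM or more in the other 3. Across 8858 genes the order was less clear, with a Spearman correlation of 0.857 for Aspn Col12a1 cells, 0.86 for Car3 Aqp1 cells, 0.823 for Chst1 Apod Crym cells and 0.781 for Zic1 Zic4 cells, groups that differ in size and so in counting error. Of the 37 Aspn Col12a1 cells 17 had 2 or more Osr1 UMIs. Without these 17 the correlation of the group was 0.77, the lowest of the 4 groups, and Nr2f1 stood at 213 CPM and Csrp2 at 869 CPM in it. The two-pore potassium channel list, which holds Kcnk2, summed to 254 CPM in Osr1-positive cells and 136 CPM in Aspn Col12a1 cells. In the other 3 groups this list summed to 31.1 CPM or less, so its high level was shared in part with the Aspn Col12a1 cells. Bmp4 was higher in the Aspn Col12a1 group (146 CPM) than in Osr1-positive cells (74.8 CPM). Aldh1a2 did not follow it, with 120 CPM in Osr1-positive cells, 17.0 CPM in Aspn Col12a1 cells and 11.8 CPM or less in the others.

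**Figure D5:**
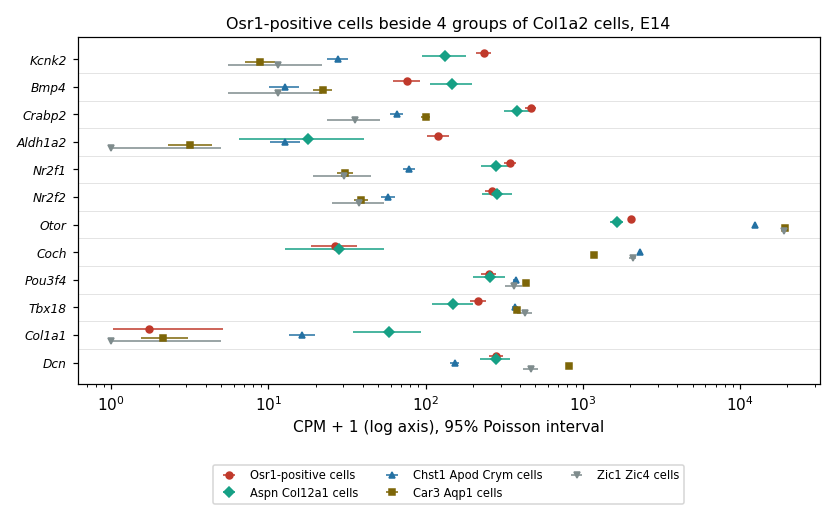
Pooled levels of 12 genes in Osr1-positive cells and in 4 groups of Col1a2 cells (Aspn Col12a1, Chst1 Apod Crym, Car3 Aqp1 and Zic1 Zic4 cells), as CPM + 1 on a log axis with 95% Poisson intervals. The Aspn Col12a1 cells lie closest to the Osr1-positive cells for Nr2f1 and Otor, and Aldh1a2 is highest in Osr1-positive cells.

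The limits of the rule removed more cells than they kept. Of 319 kept E14 cells with at least 2 Osr1 UMIs, 170 passed 1 or more limits, 115 of them that for Chst1, Apod and Crym, 76 that for Car3 and Aqp1, 58 that for cycling cells, 52 that for Aspn and Col12a1 and 12 that for Zic1 and Zic4. The genes of the limits and of the cell cycle are therefore low in the Osr1-positive cells by choice. Markers of other cell types were found in some of the cells. The immune list was at 0 in 143 of 149 cells (summed 11.2 CPM, against 5670 CPM in immune cells) and the glial list in 103. The endothelial list was at 0 in 89 and summed to 79.3 CPM in Osr1-positive cells, against 14.1 CPM in Epcam cells and 109 CPM in Col1a2 cells, mostly as Emcn (56.1, 1.49 and 86.5 CPM), while Cldn5 had no UMI and Pecam1 3. The melanocyte list was at 0 in 140 cells and summed to 125 CPM, against 28.5 and 103 CPM, with all UMIs of Dct and 95.2% of those of Pmel from 1 cell. The surface and pharyngeal epithelium list summed to 219 CPM, against 3.11 and 0.259 CPM, and its detected genes, Krt15, Krt4, Krt5, Trp63 and Foxa1, were each found in 1 cell. The intermediate mesoderm and mesothelium list summed to 70.3 CPM, against 59.7 and 0.988 CPM, and 94.5% of the UMIs of its highest gene, Krt19, were from 1 cell. Haemoglobin made up 4.01% of all UMIs of the Osr1-positive cells, but 0.0309% in the median cell, and 6 cells lay above 1%. Stress genes of dissociation summed to 6271 CPM in Osr1-positive cells, against 8428 CPM in Epcam cells and 2861 CPM in Col1a2 cells, with 7 of 10 at least 2-fold above Col1a2 cells, and their part in that comparison was not tested.

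At P2 the rule found 6 of 4081 kept cells (0.147%, 0.0540 to 0.320%), which had a median of 24825.5 UMIs. All 6 had at least 2 Epcam UMIs and none had 2 Col1a2 UMIs, where a count of 0 allows 3 of the 6 cells (50.0%). Osr1 stood at 133 CPM in them, Krt18 at 977 CPM and Aldh1a2 at 416 CPM, while Kcnk2 had 1 UMI and Bmp4, Crabp2, Nr2f1, Pou3f4 and Tbx18 had none. The P2 library held few mesenchymal cells of any kind: 25 of 4081 cells (0.613%) had at least 2 Col1a2 UMIs, against 6103 of 11588 (52.7%) at E14. Both the age and the library differ here and cannot be told apart. Over all barcodes, before the cell filter, 23 barcode sequences were found in both libraries, and 0 of these belonged to Osr1-positive cells.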

How the data were processed

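The authors aligned the reads with Cell Ranger 3.1.0 and deposited raw UMI counts per gene and barcode, 1 library per age, in barcodes already called as cells. The genome was GRCm39 by the methods, while the submitters' processing notes list GRCm39 and mm10. Their later Seurat 4.1.1 steps are not in these counts. The E14 library held 122892080 UMIs in 15636 barcodes, and the P2 library 6251 barcodes. Barcodes under 500 genes or 1000 UMIs, or with over 15% of UMIs from mitochondrial genes, were dropped (leaving 11588 and 4081, with medians of 7205 and 10085 UMIs).

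Counts were summed per group as CPM with exact 95% Poisson intervals, and shares carry exact Clopper-Pearson intervals. Both cover counting error only. Genes with at least 10 CPM in either group were compared, with 5 CPM added, and called at 2-fold or more. No model or test was fitted. Neighbours came from 30 principal components of 2000 variable genes, and subgroups from Leiden clustering (20 components, 15 neighbours, resolution 0.5). Doublets were scored by a simulation after Scrublet and kept. Their removal (the highest scores, 0.8% per 1000 barcodes) was an alternative, as were other Osr1 limits, cell filters, pseudocounts, gene filters, thinning to 4000 UMIs, a mean over cells and 50 neighbours. Calls and doublet scores were also tested on simulated data, and neighbours on held-out Epcam and Col1a2 cells.

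The members, markers and gene lists were chosen with earlier results of these data known. Named by rule were Osr1, Kcnk2 and Bmp4, up to 4 genes of each list by level, and 5 leading genes per subgroup. The 10 genes furthest apart each way in each comparison and the 20 highest over both were also named (at least 100 UMIs and 10% of cells). RefSeq promoter windows (GRCm38.p6) matched 144 of the 208 genes named by these rules. Some further list genes, among them genes at least 2-fold apart, are also given, but not every such gene. The work used Python 3.11.15 with SciPy 1.17.1, NumPy 2.4.6, scikit-learn 1.9.0, pandas 2.3.3, python-igraph 0.11.9, leidenalg 0.10.2 and matplotlib 3.10.9.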

Additional observations from a re-analysis of the deposited data

How the results depend on the processing

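No paired analysis was possible because each age had 1 library. Of 178 values recomputed under alternatives, 144 moved by less than their interval or 1.5 times and 34 moved further. None moved when the highest doublet scores or cells over 1% haemoglobin were left out, or under other cell filters, pseudocounts, gene filters, a mean over cells or 50 neighbours. The 149 cells became 95 with an Osr1 limit of 3 UMIs, 268 with a limit of 1 and 319 with no other limits. The share with at least 2 Col1a2 UMIs became 93.7% at 3 Osr1 UMIs, 70.1% at 1 and 75.2% after thinning. The share with at least 2 Epcam UMIs became 26.5% at 1 Osr1 UMI and 23.5% with no other limits. Against Epcam cells, 359 genes were higher with no other limits, and 485 (no other limits) and 621 (1 Osr1 UMI) were lower, with 6 epithelial genes lower at 1 Osr1 UMI. Against Col1a2 cells, 272 genes were higher and 0 epithelial genes higher once cells past both limits were kept, 1 epithelial gene was higher in Osr1-positive cells with fewer than 2 Epcam UMIs (chosen after seeing the data), and 225 genes were lower with no other limits. The balance of calls over Col1a2 cells, 438 higher and 394 lower as described, turned to 272 and 379 with cells past both limits kept, 349 and 471 below 2 Epcam UMIs, 460 and 500 after thinning, and 448 and 451 with an Osr1 limit of 3.

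Osr1 stood at 483, 269 and 221 CPM with a limit of 3, a limit of 1 and no other limits, at 720 CPM after thinning and at 477 CPM below 2 Epcam UMIs. Kcnk2 stood at 191 CPM (limit of 1), 115 CPM (no other limits), 191 CPM (thinned) and 297 CPM (below 2 Epcam UMIs), and Bmp4 at 60.7, 94.1 and 91.7 CPM with no other limits, thinned and below 2 Epcam UMIs. The share of cells whose neighbours were mostly Col1a2 cells became 66.4% (limit of 1), 75.9% (no other limits), 90.1% (thinned) and 96.0% (below 2 Epcam UMIs). The 6 cells at P2 became 13 with a limit of 1 and 2 after thinning. The causes were not tested. The number of cells, the use of 1 library per age and free RNA limit every value, and a gene not found in a cell of median depth may still be expressed there.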
